A study of Mus musculus with 9 samples.

Results

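The phase II conjugation enzymes and the carboxylesterases are the 86 protein-coding genes of the expression table whose names begin with the prefix of a UDP-glucuronosyltransferase (Ugt1, Ugt2 or Ugt3, 21 genes), a glutathione S-transferase (Gst, 22 genes), a microsomal glutathione S-transferase (Mgst, 3 genes), a sulfotransferase (Sult, 21 genes) or a carboxylesterase (Ces, 19 genes). They were taken from 54532 genes, 22046 of them protein coding, and 9 further genes with such names that are not protein coding were left out. Primary mouse hepatocytes on a C57BL/6 background were profiled by RNA sequencing in 3 groups of 3 libraries. CKO Tu libraries came from COX-2fl/fl mice with the Alb-Cre transgene, whose albumin promoter directs deletion of COX-2 (gene Ptgs2) to hepatocytes, after 24 h with tunicamycin at 6 µmol/L. WT Tu libraries came from littermates without Cre, which carry the same floxed allele, after the same tunicamycin treatment, and WT DMSO libraries came from such cells after 24 h with the vehicle DMSO. All cells had first spent 2 h in 1% FBS, and the series has no vehicle-treated group of the deleted genotype among the samples used here. Whether the numbered replicates were separate animals is not stated in the labels; the spread that the p-values rest on may therefore be technical.

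Phase II enzymes attach a polar group to drugs, bilirubin, steroids and bile acids so that they can leave the hepatocyte. UDP-glucuronosyltransferases add glucuronic acid and work inside the endoplasmic reticulum (ER), sulfotransferases add sulfate in the cytosol, and glutathione S-transferases add glutathione in the cytosol, in mitochondria and, for the Mgst enzymes, in membranes. Carboxylesterases cut ester bonds of drugs and lipids; most are glycoproteins held in the ER lumen, and some are secreted into blood plasma. Tunicamycin blocks N-linked glycosylation and so loads the ER with unfolded protein.

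The libraries held 14897358 to 16001484 fragments each, as recovered from the table. All 8 genes of an ER stress check list were higher in WT Tu than in WT DMSO, among them Hspa5, the ER chaperone BiP (log2 change 3.20). Ptgs2 had 1, 1 and 2 fragments in the CKO Tu libraries, against 8, 5 and 5 in WT Tu, and 0, 13 and 8 in WT DMSO. Its RNA was scarce in every group, with means of 0.0189 FPKM in CKO Tu, 0.0887 FPKM in WT Tu and 0.0943 FPKM in WT DMSO. The exact two-sided permutation test of Ptgs2 in CKO Tu against WT Tu gave p = 0.1, the smallest that 3 against 3 allows. The study's design text gives all mice as male, but the Y-linked transcripts Ddx3y, Eif2s3y, Kdm5d and Uty were present in the CKO Tu libraries and listed at 0 in all 6 WT libraries, and Xist was high in the WT libraries only. The WT libraries therefore go against the label "male". WT Tu against WT DMSO compares libraries alike in this respect, whereas in CKO Tu against WT Tu genotype and sex cannot be told apart. The 8 hepatocyte markers summed to between 15700 and 17100 FPKM in WT Tu and between 15900 and 17600 FPKM in WT DMSO, and albumin did not pass the test (log2 change -0.01); Apob, Ttr and Hnf4a were lower and none was higher.

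Levels are in FPKM, which divides the fragments of a gene by its length and by the size of the library and allows levels of different genes to be set side by side. Of the 86 genes, 55 reached 1 FPKM in at least 3 of the 9 libraries and were tested; 46 of these were at 1 FPKM or more in every library of all 3 groups. The other 31 never exceeded 1.17 FPKM, and Ces2f, Ces2h, Gstt4, Sult1c1, Ugt2a1 and Ugt2a2 were listed at 0 in every library. Glutathione S-transferases were the most abundant superfamily. Gstp1, the pi-class enzyme, had 945, 811 and 825 FPKM in WT Tu, against 923, 963 and 938 FPKM in WT DMSO. It alone made up 39.0% of the summed FPKM of all members in WT Tu and 37.3% in WT DMSO. Next in WT DMSO came Ces1c, Gstm1 and Mgst1. The plasma carboxylesterase Ces1c averaged 133 ± 24.3 FPKM in WT Tu and 341 ± 30.8 FPKM in WT DMSO (SD, n = 3 each). Gstm1, a mu-class enzyme, averaged 239 ± 14.7 FPKM in WT Tu and 242 ± 21.5 FPKM in WT DMSO (SD, n = 3 each). Mgst1, the main microsomal enzyme of the liver, averaged 198 ± 10.4 FPKM in WT Tu and 212 ± 4.90 FPKM in WT DMSO (SD, n = 3 each). The libraries of WT Tu and WT DMSO lay apart for Ces1c and overlapped for Gstp1, Gstm1 and Mgst1.

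The first comparison asks what ER stress did to these genes in cells without the COX-2 deletion. Under tunicamycin all 6 tested genes of the Ces1 branch of carboxylesterases fell, with a median log2 change of -1.19. Outside Ces1, 5 of 49 tested genes passed the test (10.2%): Ugt2b35, Mgst3 and Gstm4 fell, and Gsto1 and Sult2a8 rose. In all, 2 of the 55 tested genes were higher, 9 were lower and 44 did not pass. That is 20% called, where 33.6% of all 11858 genes tested were called (17.7% higher and 15.9% lower). The median log2 change of the tested members was 0.005, beside -0.002 over all genes tested. The groups did not overlap for 17 of the 55 genes, where 46.7% of all genes tested did not overlap (23.9% with WT Tu higher and 22.8% with WT Tu lower). A gene was called by limma at a Benjamini-Hochberg adjusted p under 0.05, and log2 changes are on the log2(FPKM + 1) scale, which understates changes of genes near 1 FPKM.

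**Figure D1:**
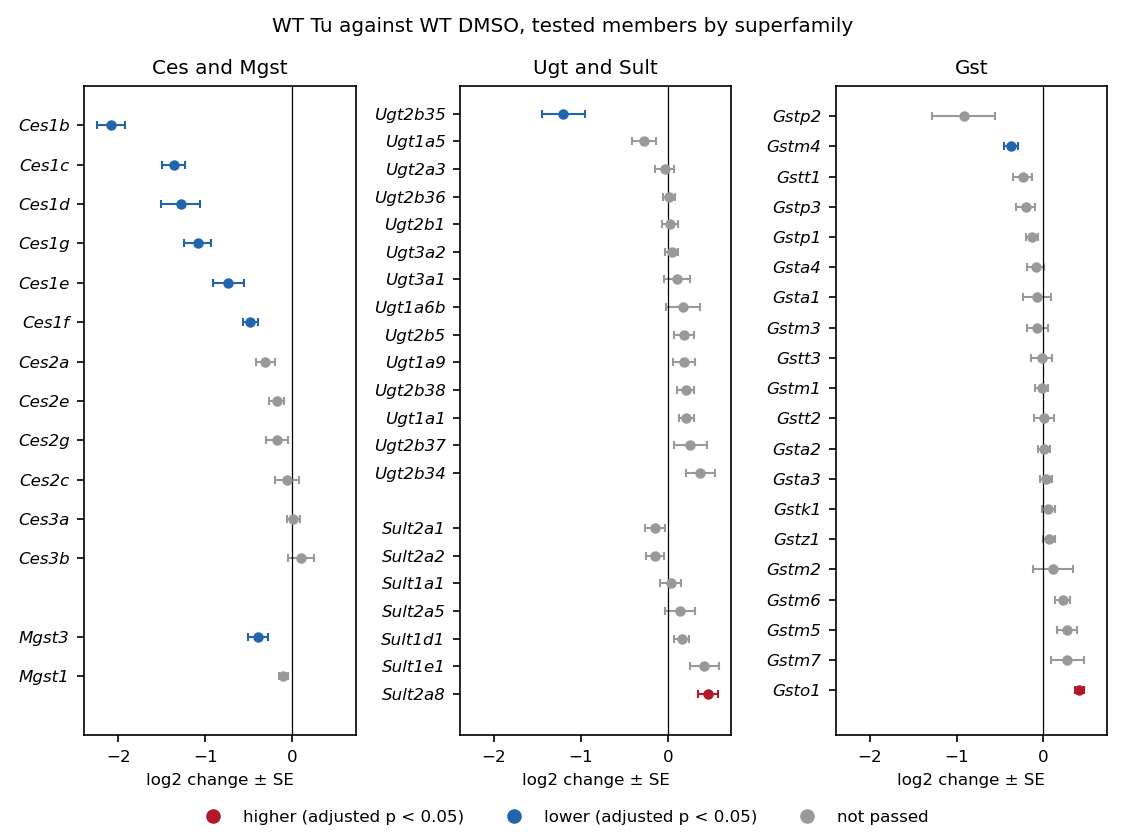
Log2 change in WT Tu against WT DMSO with its standard error (horizontal axis) for the 55 tested genes, 1 row per gene, grouped by superfamily; blue points were called lower, red points higher, and grey points did not pass. The 6 Ces1 genes and Ugt2b35 lie farthest to the left among the called genes, and most glutathione S-transferases, sulfotransferases and other UDP-glucuronosyltransferases sit near 0.

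The call counts depend on the scaling. With each library scaled to its total fragments, in place of the library size inside the deposited FPKM, the median over all genes moved to -0.108 and 31.5% of all calls were upward, against 52.7% in the deposited scaling. Under that scaling 16 members were lower and 2 higher. Among the 7 added genes, Mgst1 was at -0.23, Gstp1 at -0.26, Gstp3 at -0.33 and Gstt1 at -0.36. About 0.1 of each is the shift of all genes. The 6 Ces1 genes were called lower under both scalings.

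Ces1c, which encodes a carboxylesterase secreted into mouse plasma, was the most abundant carboxylesterase. It had 105, 142 and 152 FPKM in WT Tu, against 305, 361 and 356 FPKM in WT DMSO. Every WT Tu library was below every WT DMSO library, and the group mean was 2.56-fold lower in WT Tu (log2 change -1.36 ± 0.13 (SE), adjusted p = 9.7e-05). Ces1b, a close relative next to it on the chromosome, changed most. It had 1.00, 2.26 and 1.34 FPKM in WT Tu, against 9.45, 9.39 and 9.87 FPKM in WT DMSO. The WT DMSO libraries agreed closely and all stood far above the WT Tu libraries, a 6.23-fold lower mean in WT Tu (log2 change -2.09 ± 0.16 (SE), adjusted p = 2.4e-05). In bulk samples, fewer cells of a type and less RNA per cell cannot be told apart.

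Ces1d, an ER-resident triacylglycerol hydrolase that mobilises stored fat for lipoprotein assembly, had 2.11, 2.71 and 3.95 FPKM in WT Tu, against 6.67, 9.32 and 9.33 FPKM in WT DMSO. The groups did not overlap, and the log2 change was -1.28 ± 0.23 (SE; adjusted p = 0.0027). Ces1g, a lipid-metabolising carboxylesterase of the liver, had 1.03, 1.70 and 1.36 FPKM in WT Tu, against 3.41, 4.22 and 4.40 FPKM in WT DMSO. It again showed no overlap, with a log2 change of -1.09 ± 0.15 (SE; adjusted p = 8.1e-04). Ces1e had 0.481, 1.16 and 1.11 FPKM in WT Tu, against 2.01, 2.36 and 2.08 FPKM in WT DMSO. Its WT Tu values rest on 91 fragments over the 3 libraries, against 227 in WT DMSO, and its log2 change was -0.73 ± 0.18 (SE; adjusted p = 0.012). Ces1f had 0.920, 1.24 and 1.18 FPKM in WT Tu, against 1.72, 1.99 and 2.10 FPKM in WT DMSO. It moved least of the 6, with a log2 change of -0.48 ± 0.09 (SE; adjusted p = 0.0038). The remaining Ces1 genes, Ces1a and Ces1h, stayed below the filter in every group and were not tested.

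**Figure D2:**
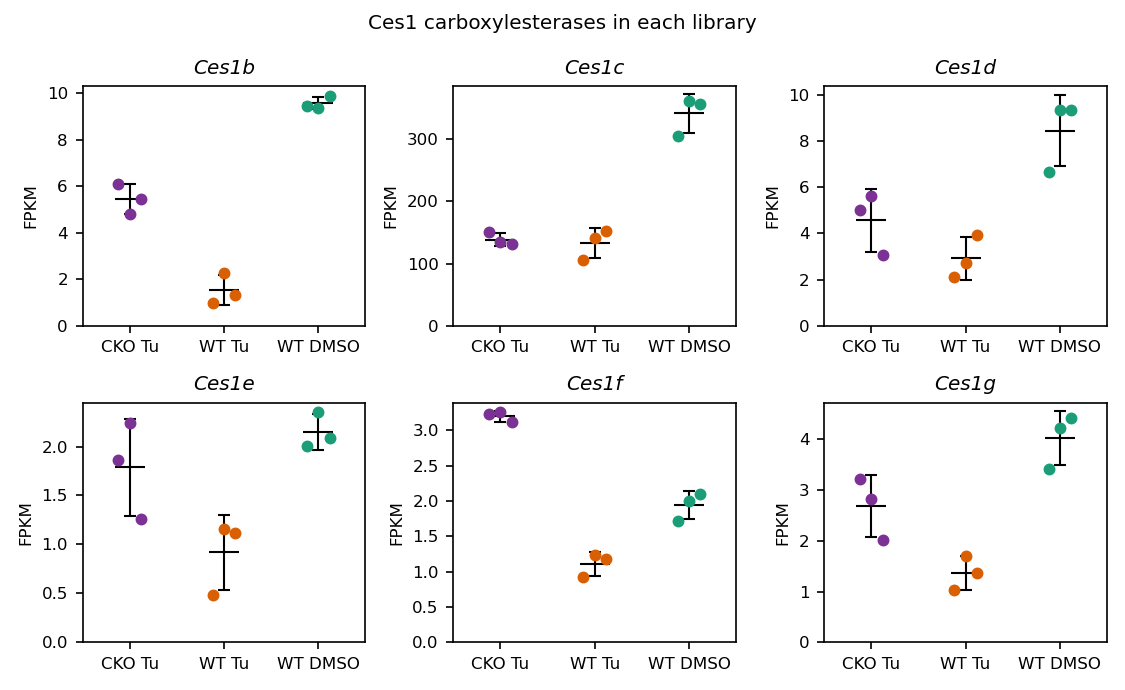
FPKM of the 6 tested Ces1 genes in each library (points), with the group mean and SD (black), for CKO Tu, WT Tu and WT DMSO; each panel has its own axis from 0. In every panel the 3 WT Tu points lie below the 3 WT DMSO points, and for Ces1b the CKO Tu points, 4.80 to 6.11 FPKM, lie between them.

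Within WT Tu, replicate 1 was the lowest library for 6 of the 6 tested Ces1 genes, and within WT DMSO replicate 1 was the lowest for 5 of 6. WT Tu replicate 1 also had the highest share of mitochondrial fragments, 6.87%, against 5.25% and 5.90% in replicates 2 and 3 of WT Tu, and 4.40%, 5.69% and 5.24% in WT DMSO. Without WT Tu replicate 1 all 6 were still called lower, with log2 changes of -1.93 for Ces1b, -1.21 for Ces1c, -1.13 for Ces1d, -0.98 for Ces1g, -0.56 for Ces1e and -0.41 for Ces1f. Endothelial marker genes fell as well: the 4 tested of 9 (Pecam1, Cdh5, Eng and Stab1) were all lower, and the 9 summed to between 4.76 and 5.90 FPKM in WT Tu, against between 11.2 and 11.8 FPKM in WT DMSO. Kupffer cell markers summed to between 96.9 and 115 FPKM in WT Tu and between 75.3 and 92.9 FPKM in WT DMSO, nearly all of it Cd68. Of that list Cd68 rose and Lyz2 fell, the other 8 were below the filter, and Vsig4 was listed at 0 in both groups. Stellate cell markers summed to at most 0.597 FPKM in WT Tu and 0.572 FPKM in WT DMSO, and cholangiocyte markers to between 22.8 and 24.3 FPKM in WT Tu and between 22.7 and 25.9 FPKM in WT DMSO, with none called. The 8 lymphocyte and neutrophil markers were all below the filter, with sums of at most 0.95 FPKM in WT Tu and 1.05 FPKM in WT DMSO. The part of these cells in the Ces1 result was not tested.

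All 19 Ces genes lie on chromosome 8, in separate clusters. The 8 Ces1 genes run side by side on the minus strand over 359.5 kb (mm10, chr8:93020214-93379725). The 7 Ces2 genes span 287.2 kb on the plus strand (chr8:104734003-105021178), followed by Ces3a and Ces3b (chr8:105048601-105093929). All 6 tested genes of the Ces1 array were called lower under tunicamycin; none of the 4 Ces2 and 2 Ces3 genes tested passed, but Ces2a was called lower under 5 of 18 alternatives (a filter at 5 FPKM, upper-quartile or total-fragment scaling, voom on recovered fragments, and without WT DMSO replicate 1) and Ces2e under 2 (total-fragment scaling, and without WT DMSO replicate 1). Ces2a, the carboxylesterase of the Ces2 array with the highest level, came nearest, with 10.8, 12.9 and 13.0 FPKM in WT Tu, against 13.2, 17.6 and 15.6 FPKM in WT DMSO. Its 3 WT Tu libraries were below the 3 WT DMSO libraries, but the change did not pass (log2 change -0.31, 95% interval -0.56 to -0.06, adjusted p = 0.058). Ces3a had 28.1, 33.7 and 31.2 FPKM in WT Tu, against 28.9, 31.4 and 31.4 FPKM in WT DMSO. The groups overlapped fully, and the 95% interval of the log2 change ran from -0.15 to 0.18. Summed over all 19 genes, carboxylesterase transcripts came to 176, 223 and 234 FPKM in WT Tu, against 397, 466 and 460 FPKM in WT DMSO. Ces1c made up 63.1% of this sum in WT Tu and 77.3% in WT DMSO.

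**Figure D3:**
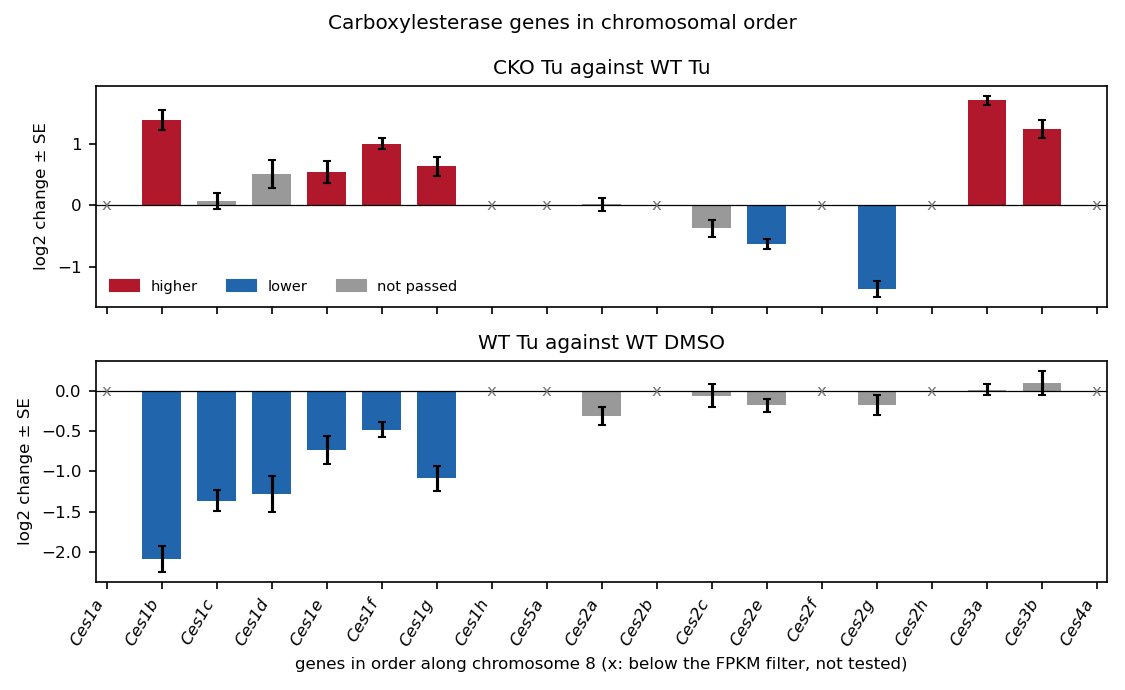
Log2 change with its standard error (vertical axes) for the 19 carboxylesterase genes in their order along chromosome 8, in CKO Tu against WT Tu (top) and WT Tu against WT DMSO (bottom); blue bars were called lower, red bars higher, grey bars did not pass, and x marks genes below the filter. In the lower panel the 6 blue bars are neighbours, from Ces1b to Ces1g, and in the upper panel Ces3a and Ces3b carry the tallest pair of neighbouring bars.

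The promoters of 4 Ces1 genes are shown because the genes moved together. Ces1d and Ces1f, which were also called lower, are not among those shown. RefSeq promoters (GRCm38.p6) were matched for 74 of the 86 members and for 6 of the 8 Ces1 genes. Below are the 250 bases before the start of 4 of them, on the minus strand, 5′ to 3′, for Ces1b (chr8:93079941-93080190, the first of 2 start sites in that table), Ces1c (chr8:93131284-93131533), Ces1e (chr8:93229620-93229869) and Ces1g (chr8:93337210-93337459). Capitals mark runs of at least 20 bases that recur in another of the 4.
Ces1b: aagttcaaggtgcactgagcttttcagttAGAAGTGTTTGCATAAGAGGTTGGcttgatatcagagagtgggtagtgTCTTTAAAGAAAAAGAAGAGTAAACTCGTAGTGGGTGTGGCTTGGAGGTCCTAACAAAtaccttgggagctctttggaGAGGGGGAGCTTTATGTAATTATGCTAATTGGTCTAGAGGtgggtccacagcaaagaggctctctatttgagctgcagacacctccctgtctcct
Ces1c: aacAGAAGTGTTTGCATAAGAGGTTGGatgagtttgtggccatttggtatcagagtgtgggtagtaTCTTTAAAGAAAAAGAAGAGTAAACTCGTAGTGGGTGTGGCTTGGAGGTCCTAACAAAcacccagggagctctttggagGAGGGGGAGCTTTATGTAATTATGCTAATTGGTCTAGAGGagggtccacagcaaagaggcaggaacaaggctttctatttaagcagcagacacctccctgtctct
Ces1e: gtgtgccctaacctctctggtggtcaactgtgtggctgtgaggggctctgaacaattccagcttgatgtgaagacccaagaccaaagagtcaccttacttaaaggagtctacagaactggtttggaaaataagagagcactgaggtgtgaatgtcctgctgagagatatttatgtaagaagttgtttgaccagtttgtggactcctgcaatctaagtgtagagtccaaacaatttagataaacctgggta
Ces1g: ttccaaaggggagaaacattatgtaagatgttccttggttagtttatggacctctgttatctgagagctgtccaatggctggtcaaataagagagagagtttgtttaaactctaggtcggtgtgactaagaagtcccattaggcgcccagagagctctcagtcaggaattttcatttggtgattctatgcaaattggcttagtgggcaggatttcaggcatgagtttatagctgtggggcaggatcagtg
Ces1b and Ces1c, the genes with the largest changes, shared 122 of 250 bases in such runs, the longest of 58 bases. Ces1e and Ces1g shared no run of that length with the others, and their longest common run was 11 bases; both were called lower as well. Both strands of the 250 bases before each start were searched for 5 motifs. The ER stress response element (CCAAT, then 9 bases of any kind, then CCACG) was in 0 of the 74 member promoters, where 0.13% of the promoters of 27025 genes hold it. The core of the unfolded protein response element, TGACGTGG, was in that of Sult2b1 alone (1.35%, against 0.603% of all genes). The antioxidant response element core TGACNNNGC was in 4 member promoters (5.41%, against 11.5% of all genes). The C/EBP half-site pair TTGCNNAA was in 16 (21.6%, against 10.8% of all genes), among them Ces1b and Ces1c, where it begins 213 and 239 bases upstream, inside the first capital run. The CCAAT box, CCAAT, which also begins the ER stress response element, was in 31 (41.9%, against 37.5% of all genes), including Ces1a, Ces1b, Ces1c and Ces1g. A match describes the letters only and is not evidence of binding.

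Among the UDP-glucuronosyltransferases, 1 of 14 tested genes fell and none rose. Ugt2b35 (chr5:87000860-87013275, plus strand), of the branch that conjugates steroids and drugs, had 10.5, 9 and 9.94 FPKM in WT Tu, against 39.2, 16.9 and 20.4 FPKM in WT DMSO. Every WT Tu library was below every WT DMSO library, but WT DMSO replicate 1 stood well above replicates 2 and 3. The log2 change was -1.20 ± 0.25 (SE; adjusted p = 0.0059), and without WT DMSO replicate 1 it was -0.86 (adjusted p = 5.7e-04). None of the other 6 Ugt2b genes passed, but without WT DMSO replicate 1 Ugt2b34 was called higher (log2 change 0.54, adjusted p = 0.031). Ugt2b5, the most abundant Ugt, had 39.3, 31.4 and 35.3 FPKM in WT Tu, against 36.0, 27.9 and 29.2 FPKM in WT DMSO, with overlapping groups (log2 change 0.19, adjusted p = 0.23). Ugt1a1, the enzyme that conjugates bilirubin, had 14.1, 12.2 and 12.5 FPKM in WT Tu, against 9.65, 12 and 11.5 FPKM in WT DMSO. All 3 WT Tu values were the higher ones, by margins that did not pass after adjustment (log2 change 0.21, 95% interval 0.02 to 0.41, adjusted p = 0.091). The 13 Ugt genes that did not pass had log2 changes between -0.28 and 0.37, and their 95% intervals reached from -0.59 to 0.75. Summed over all 21 Ugt genes, FPKM in WT Tu was 1.01 times that in WT DMSO.

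The Gst genes gave 1 higher and 1 lower of 20 tested. Gsto1 (chr19:47854970-47864790, plus strand), the omega-class enzyme that also reduces dehydroascorbate, had 77.2, 77.2 and 78.1 FPKM in WT Tu, against 60.2, 54.6 and 58.9 FPKM in WT DMSO. The WT Tu libraries were nearly equal and all above WT DMSO (log2 change 0.42 ± 0.05 (SE), adjusted p = 5e-04). Gstm4, a mu-class enzyme of low level here (chr3:108040408-108044894, minus strand), had 3.62, 3.98 and 3.77 FPKM in WT Tu, against 5.59, 5.08 and 4.97 FPKM in WT DMSO. Its groups were also apart (log2 change -0.37 ± 0.08 (SE), adjusted p = 0.0086). The abundant enzymes did not pass: Gstp1 had a log2 change of -0.13 (95% interval -0.28 to 0.02) and Gstm1 of -0.02 (95% interval -0.19 to 0.15). Gstp1 passed without WT Tu replicate 1 (log2 change -0.20, adjusted p = 0.0048). Gsta1 had 97.3, 147 and 167 FPKM in WT Tu, against 147, 136 and 138 FPKM in WT DMSO, so that the range within WT Tu enclosed that of WT DMSO. Of its sequence, 90.5% also occurs in other genes, so its reads could be split or lost in counting. Gstz1, which isomerises maleylacetoacetate in tyrosine breakdown, and Gstk1, the mitochondrial and peroxisomal kappa-class enzyme, had log2 changes of 0.07 and 0.06 that did not pass. The widest interval of the superfamily belonged to Gstp2, which had 4.47, 5.03 and 12.2 FPKM in WT Tu, against 22.2, 10.8 and 9.79 FPKM in WT DMSO; it was picked out here after its values were seen. Its log2 change was -0.92 (adjusted p = 0.086), and it was called lower with voom and without WT Tu replicate 3. Of its sequence, 54.3% is shared with other genes, mostly Gstp1.

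Of the microsomal enzymes, Mgst3, which can form leukotriene C4, had 3.97, 4.98 and 4.45 FPKM in WT Tu, against 6.52, 5.92 and 6.01 FPKM in WT DMSO. The groups did not overlap (log2 change -0.39 ± 0.12 (SE), adjusted p = 0.03), but the call was lost under 7 of 18 alternative settings, among them without WT Tu replicate 1 (adjusted p = 0.08) and without WT DMSO replicate 1 (adjusted p = 0.088). Mgst1 had a log2 change of -0.10 that did not pass (95% interval -0.22 to 0.02), and Mgst2 was below the filter.

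Only 7 of the 21 sulfotransferases were tested. Sult2a8, a bile acid sulfotransferase of mouse liver (chr7:14410686-14446769, minus strand), had 4.73, 4.66 and 5.20 FPKM in WT Tu, against 2.5, 3.75 and 3.65 FPKM in WT DMSO. All WT Tu libraries were above all WT DMSO libraries (log2 change 0.46 ± 0.12 (SE), adjusted p = 0.015); the call was lost when a trend with GC content was removed (log2 change 0.28, adjusted p = 0.15). Sult1a1, the main phenol sulfotransferase, had 20.2, 21.2 and 19.3 FPKM in WT Tu, against 16.2, 22.3 and 21.1 FPKM in WT DMSO, with full overlap (95% interval of the log2 change -0.24 to 0.31). The 6 sulfotransferases that did not pass had log2 changes between -0.15 and 0.42.

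The enzymes depend on other genes for donor molecules, transport and transcription. Of 90 such partner genes in 7 lists, 78 were tested. Of the tested partner genes, 13 were higher in WT Tu, 21 were lower and 44 did not pass. Over all genes tested, 33.6% were called in this comparison (17.7% higher and 15.9% lower). Around glucuronidation, Slc35b1, a nucleotide transporter of the ER membrane, stood out. It averaged 94.6 ± 7.98 FPKM in WT Tu and 28.2 ± 2.86 FPKM in WT DMSO (SD, n = 3 each; log2 change 1.71, adjusted p = 2.3e-06). Ugp2, which makes UDP-glucose, averaged 64.5 ± 8.11 FPKM in WT Tu and 46.6 ± 0.867 FPKM in WT DMSO (SD, n = 3 each; log2 change 0.45). Ugdh, which oxidises UDP-glucose to UDP-glucuronic acid, and the lysosomal glucuronidase Gusb were each lower, both with a log2 change of -0.27 (adjusted p = 0.034 for Ugdh, lost under 8 of 18 alternatives, and 0.015 for Gusb, lost under 1). The list of 6 thus had 2 higher and 2 lower.

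For sulfation, Papss2, which makes the sulfate donor PAPS, was higher (log2 change 0.34, adjusted p = 0.029), a call lost under 7 of 18 alternatives, total-fragment scaling among them. The sulfate transporter Slc26a1 (-0.51) and the sulfite oxidase Suox (-0.34) were lower, and 6 of 9 did not pass. For glutathione, Gclc, the catalytic subunit of the rate-limiting enzyme of its synthesis, averaged 124 ± 2.87 FPKM in WT Tu and 260 ± 104 FPKM in WT DMSO (SD, n = 3 each). Its log2 change was -0.99 (adjusted p = 0.0082). WT DMSO replicate 1 stood apart for Gclc, at 380 FPKM, against 195 and 206 FPKM in replicates 2 and 3. Over 18 alternatives its log2 change ran from -1.16 to -0.69 and the call was kept. Glutathione reductase Gsr was lower (-0.41), while Cth (0.36) and the cystine importer Slc7a11 (0.27, adjusted p = 0.032) were higher; the Slc7a11 call was lost under 9 of 18 alternatives, total-fragment scaling among them. That list had 2 higher and 4 lower of 12. Among other conjugating enzymes, the arylamine acetyltransferase Nat2 was lower (-0.42, adjusted p = 0.031, lost under 6 of 18 alternatives), and Baat, which joins bile acids to amino acids, was higher (0.31, adjusted p = 0.041, lost under 13 of 18, total-fragment scaling among them); 12 of 16 did not pass. Other hydrolases had 4 higher and 1 lower of 9: butyrylcholinesterase Bche (0.52) and Nceh1 (0.45) were higher, and the epoxide hydrolase Ephx1 was lower (-0.51).

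Of 13 transporters, the basolateral exporter Abcc3 (-0.67) and the canalicular exporter Abcg2 (-0.60) were lower, and the canalicular exporter Abcc2 was higher (0.30, adjusted p = 0.032, lost under 9 of 18 alternatives, total-fragment scaling among them); 1 was higher, 3 were lower and 9 did not pass. Of 13 regulators of drug metabolism genes, 2 were higher and 6 lower. Cebpa, a transcription factor of the C/EBP family, averaged 27.2 ± 5.44 FPKM in WT Tu and 61.7 ± 15.5 FPKM in WT DMSO (SD, n = 3 each; log2 change -1.15, adjusted p = 0.0016). Hnf4a, a hepatocyte nuclear receptor that is also on the hepatocyte marker list, averaged 6.43 ± 0.779 FPKM in WT Tu and 11.2 ± 0.981 FPKM in WT DMSO (SD, n = 3 each; log2 change -0.72, adjusted p = 5.2e-04). The bile acid receptor Nr1h4 (0.54) and the glucocorticoid receptor Nr3c1 (0.25, adjusted p = 0.046) were higher; the Nr3c1 call was lost under 13 of 18 alternatives, total-fragment scaling among them. Whether these regulators bear on the Ces1 genes was not tested.

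The second comparison, CKO Tu against WT Tu, asks how the genes differ under tunicamycin between hepatocytes with and without the COX-2 deletion. It shares the WT Tu libraries with the first comparison, and it is the comparison in which genotype and sex cannot be told apart. Lists of liver genes with known sex bias moved with it: the 9 tested female-biased genes were all lower in CKO Tu and the 12 tested male-biased genes all higher. Of the 55 tested members 16 were higher, 17 were lower and 22 did not pass. That is 60% called, where 38.3% of all genes tested were called (18.7% higher and 19.6% lower). The median log2 change was 0.037 for the tested members and -0.002 over all genes. The groups did not overlap for 37 of the 55 genes, where 51.2% of all genes tested did not overlap (25.0% with CKO Tu higher and 26.2% with CKO Tu lower).

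**Figure D4:**
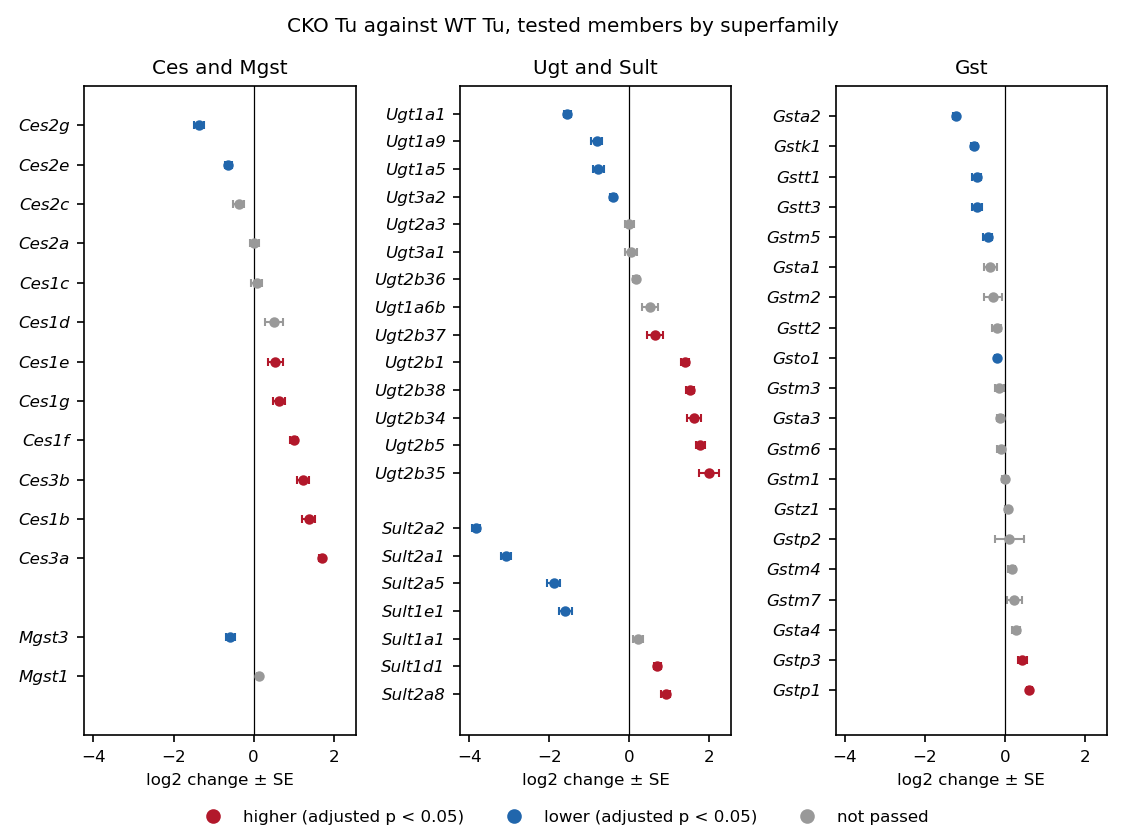
Log2 change in CKO Tu against WT Tu with its standard error (horizontal axis) for the 55 tested genes, 1 row per gene, grouped by superfamily; blue points were called lower, red points higher, and grey points did not pass. Sult2a1 and Sult2a2 lie farthest to the left, and Ugt2b35, Ugt2b5, Ces3a and Ugt2b34 farthest to the right.

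The Ugt2b branch was higher in CKO Tu for 6 of 7 genes, and the Ugt1 branch was lower for 3 of the 4 tested. The call of 1 of the 6, Ugt2b37 (log2 change 0.65, adjusted p = 0.028), was lost under 6 of the 17 alternatives that tested it, including without WT Tu replicate 1 or 2, or CKO Tu replicate 1 or 2 (adjusted p up to 0.096). Ugt2b5 had 133, 116 and 120 FPKM in CKO Tu, against 39.3, 31.4 and 35.3 FPKM in WT Tu. The groups were far apart (log2 change 1.78, adjusted p = 9.6e-06). Ugt2b34 had 115, 101 and 106 FPKM in CKO Tu, against 42.6, 28.8 and 33.3 FPKM in WT Tu (log2 change 1.61, adjusted p = 1.7e-04). Ugt2b35 had 44.0, 40.6 and 41.3 FPKM in CKO Tu, against 10.5, 9 and 9.94 FPKM in WT Tu. All CKO Tu libraries were far above WT Tu (log2 change 1.99 ± 0.25 (SE), adjusted p = 4e-04), and above the highest WT DMSO library, 39.2 FPKM. By ratio of means the increase was 4.27-fold for Ugt2b35 and 4.38-fold for Ugt2b38, which averaged 5.34 FPKM in CKO Tu and 1.22 FPKM in WT Tu. Ugt2b38 shares 34.15% of its sequence with the more abundant Ugt2b5, and Ugt2b37 shares 15.23%. Reads of Ugt2b5 could therefore be mixed with those of Ugt2b38 and Ugt2b37 in counting. Ugt1a1 had 3.65, 3.86 and 3.69 FPKM in CKO Tu, against 14.1, 12.2 and 12.5 FPKM in WT Tu, and every CKO Tu library was lower (log2 change -1.55 ± 0.09 (SE), adjusted p = 4.6e-06). Ugt1a9 (-0.82) and Ugt1a5 (-0.77) were also lower. Ugt1a6b, the other tested Ugt1 gene, went the other way and did not pass. It had 1.90, 3.17 and 3.33 FPKM in CKO Tu, against 1.74, 1.39 and 1.79 FPKM in WT Tu (log2 change 0.51, adjusted p = 0.076). The groups did not overlap, and Ugt1a6b was called higher under 2 of the 17 alternatives that tested it. All 9 Ugt1 genes share at least 50% of their sequence with another gene, since they use common last exons, so how reads were divided among them is uncertain. Ugt3a2 was lower as well (-0.40). The summed Ugt level in CKO Tu was 2.12 times that in WT Tu.

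The sulfotransferases differed most. Sult2a1, a hydroxysteroid sulfotransferase (chr7:13796246-13837409, minus strand), had 0 fragments in all 3 CKO Tu libraries, against 343 over the 3 WT Tu libraries. With 3 fragments over the group taken as the limit that a count of 0 allows, it was at least 119-fold lower in CKO Tu. Sult2a2 had 1 fragment in CKO Tu and 448 in WT Tu, a ratio of 0.00215 (95% counting interval 5.44e-05 to 0.0121). Sult2a5 had 1 fragment in CKO Tu and 134 in WT Tu, a ratio of 0.00719 (95% counting interval 1.81e-04 to 0.0408). These intervals cover counting error only, and 62.1% of the Sult2a2 sequence also occurs in other genes. Sult2a8 went the other way, with 10.5, 10.2 and 9.23 FPKM in CKO Tu, against 4.73, 4.66 and 5.20 FPKM in WT Tu (log2 change 0.90, adjusted p = 4.6e-04). Sult1d1, which sulfates catecholamines in mice, was higher too (log2 change 0.70, adjusted p = 4.4e-04). Of the 7 tested, 2 were higher, 4 were lower and 1 did not pass. Of the 14 sulfotransferases below the filter, only Sult3a1 was called when no filter was used, and it was lower. Sult3a1 had 0 fragments in CKO Tu and 47 in WT Tu, at least 16.3-fold lower by the limit taken for Sult2a1.

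Carboxylesterases were higher in CKO Tu for 6 of 12 tested genes and lower for 2. Ces3a had 106, 102 and 99.7 FPKM in CKO Tu, against 28.1, 33.7 and 31.2 FPKM in WT Tu. All 3 CKO Tu libraries lay far above WT Tu (log2 change 1.70 ± 0.07 (SE), adjusted p = 9e-07). Ces3b had 20.3, 18.8 and 19.7 FPKM in CKO Tu, against 6.58, 7.18 and 9.82 FPKM in WT Tu (log2 change 1.23, adjusted p = 3.4e-04). Ces3a shares 25.6% of its sequence with Ces3b, so reads of the pair could be mixed in counting. In the Ces1 array, Ces1b had 6.11, 4.80 and 5.48 FPKM in CKO Tu, against 1.00, 2.26 and 1.34 FPKM in WT Tu (log2 change 1.37, adjusted p = 2.9e-04). Ces1f, Ces1g and Ces1e were also higher, with log2 changes of 1.00, 0.63 and 0.54. The Ces1e call (adjusted p = 0.038) was lost under 8 of the 17 alternatives that tested it, including without WT DMSO replicate 1, 2 or 3, WT Tu replicate 1, or CKO Tu replicate 1 or 2 (adjusted p up to 0.13). Ces1c, the abundant plasma enzyme, had 150, 135 and 131 FPKM in CKO Tu, against 105, 142 and 152 FPKM in WT Tu, with overlapping groups (log2 change 0.07, 95% interval -0.23 to 0.37, adjusted p = 0.7). Ces1d did not pass (log2 change 0.50, adjusted p = 0.11); it passed without CKO Tu replicate 3 (log2 change 0.72, adjusted p = 0.034) and without WT Tu replicate 3 (log2 change 0.68, adjusted p = 0.05 after rounding). Ces2g had 1.07, 1.03 and 1.41 FPKM in CKO Tu, against 4.90, 4.04 and 4.70 FPKM in WT Tu (log2 change -1.35, adjusted p = 8.7e-05), and Ces2e was lower by a smaller margin (-0.63).

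Among glutathione S-transferases 2 of 20 were higher in CKO Tu and 6 lower. Gstp1 had 1311 ± 9.01 FPKM in CKO Tu, against 861 ± 73.6 FPKM in WT Tu (SD, n = 3 each; log2 change 0.61 ± 0.07 (SE), adjusted p = 1.9e-04). Gstp3 was also higher (log2 change 0.43, adjusted p = 0.015), a call that was lost without CKO Tu replicate 2 (adjusted p = 0.057). Gsta2 had 17.2, 17.4 and 19.2 FPKM in CKO Tu, against 46.2, 41.9 and 42.0 FPKM in WT Tu, and no library of one group came near the other (log2 change -1.23, adjusted p = 3.6e-06). Of the Gsta2 sequence, 49.8% also occurs in other genes, mostly Gsta1, so its reads could be split or lost in counting. Gstk1 (-0.78) and Gstt1 (-0.71), the theta-class enzyme that acts on small halogenated compounds, were lower. Gsta1 did not pass (log2 change -0.37, adjusted p = 0.1) but did without WT Tu replicate 1 (log2 change -0.60, adjusted p = 2.5e-04). Gsto1 was slightly lower (log2 change -0.20, adjusted p = 0.019), a call lost with total-fragment scaling (0.084) and without WT Tu replicate 3, CKO Tu replicate 1 or CKO Tu replicate 2 (0.051 to 0.07). Mgst3 had a log2 change of -0.58 (adjusted p = 0.0045).

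Of the 78 tested partner genes, 28 were higher in CKO Tu, 19 were lower and 31 did not pass. Over all genes tested, 38.3% were called in this comparison (18.7% higher and 19.6% lower). Gclc averaged 302 ± 27.9 FPKM in CKO Tu and 124 ± 2.87 FPKM in WT Tu (SD, n = 3 each; log2 change 1.27, adjusted p = 0.0021). Papss2 averaged 5.26 ± 0.639 FPKM in CKO Tu and 16.2 ± 1.62 FPKM in WT Tu (SD, n = 3 each; log2 change -1.46, adjusted p = 1.5e-05). Hnf4a averaged 19.8 ± 1.25 FPKM in CKO Tu and 6.43 ± 0.779 FPKM in WT Tu (SD, n = 3 each; log2 change 1.48, adjusted p = 1e-05). Markers of other cells moved too: cholangiocyte markers summed to between 34.3 and 38.3 FPKM in CKO Tu, against between 22.8 and 24.3 FPKM in WT Tu, and stellate cell markers to between 1.79 and 2.24 FPKM in CKO Tu, against between 0.390 and 0.597 FPKM in WT Tu. The 2 cholangiocyte markers and the 1 stellate cell marker that were tested were called higher. Endothelial markers summed to between 3.49 and 4.04 FPKM in CKO Tu, against between 4.76 and 5.90 FPKM in WT Tu, with 1 of 4 tested lower. Of the hepatocyte markers, 6 of 8 were higher and 1 lower in CKO Tu, with sums between 13700 and 14600 FPKM in CKO Tu and between 15700 and 17100 FPKM in WT Tu. The part of these cells in the differences was not tested.

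**Figure D5:**
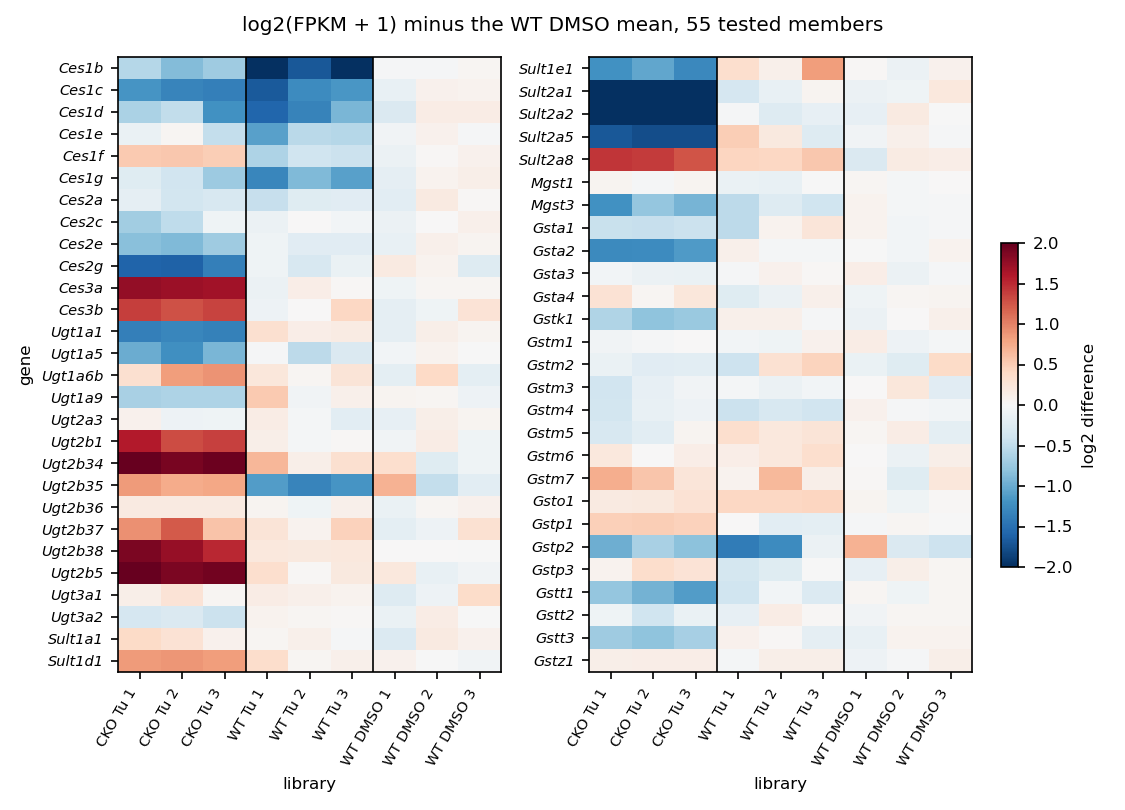
log2(FPKM + 1) minus the WT DMSO mean (colour, limits -2 and 2) for the 55 tested genes (rows) in the 9 libraries (columns: CKO Tu, WT Tu, WT DMSO); blue is below and red above the WT DMSO mean. Ces1b to Ces1g and Ugt2b35 are blue in the WT Tu columns, while in the CKO Tu columns Ces3a, Ces3b and most Ugt2b genes are red and Sult2a1, Sult2a2 and Sult2a5 are blue.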

How the data were processed

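RNA was extracted from the hepatocytes with TRIzol, per the labels' protocols. The deposited table gives each gene's FPKM as the authors computed it. The submitters' processing notes name HISAT2 2.2.1, featureCounts 1.5.0-p3 and mm10; their roles and settings, strand use and the annotation release are not given in the sources used here. Multiplied by gene length, 100% of the FPKM values in a library fell on whole multiples of a common step (tolerance 0.01), which gave the fragment counts; the library size inside the FPKM was 0.948 to 1.07 times the total. Total fragments set the precision of low genes.

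The 11858 genes reaching 1 FPKM in 3 or more libraries were fitted as log2(FPKM + 1) in limma 3.58.1 (R 4.3.3) with an intensity trend, all 9 libraries together, two-sided, with Benjamini-Hochberg adjustment over all genes at 0.05. The fit was also run on simulated data with the same spread for every gene, which cannot show that the calls hold in these libraries. Shared sequence was counted as words of 50 bases in GENCODE transcripts. Members, lists and tests were chosen with earlier results of these data known. Named are the most abundant member of each family, up to 3 called members per superfamily, direction and comparison, and up to 2 called partner genes per list and direction (1 is not reported here); all other members, such as Ces1e, Ces1f, Ces1g, Ces2a and Gstp2, were named after their values were seen. Alternatives changed the pseudocount (0.1), filter (none, 5 FPKM), scaling, model, GC trend and libraries. Over all genes tested, same-numbered libraries of 2 groups did not deviate together, which cannot settle whether they are paired.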

Additional observations from a re-analysis of the deposited data

How the results depend on the processing

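Under 18 alternative settings no called log2 change of a named member changed sign, but the balance of calls did turn with the scaling. The 6 Ces1 genes were called lower in WT Tu against WT DMSO under each setting that tested them (Ces1e, Ces1f and Ces1g are not tested at a filter of 5 FPKM), with a highest adjusted p of 0.0443, for Ces1e. Members called lower in that comparison numbered 9, and 16 with total-fragment scaling; members called higher numbered 2, with 4 under the replicate block and 1 with the GC trend removed. Over all genes tested, the deviations of same-numbered libraries had correlations between -0.048 and 0.02. Such correlations cannot settle whether the replicate numbers pair the libraries, and the labels do not say. The replicate block added Ugt2b34 and Ugt2b5 to the members called higher. Partner genes higher (13) numbered 6 without a filter, 7 with upper-quartile scaling, 6 with total-fragment scaling, 7 in a fit of only the 2 groups and 8 with the GC trend removed; partner genes lower (21) numbered 13 without a filter and 33 with total-fragment scaling. Leaving out 1 library at a time, partner genes higher ranged from 6 (without WT DMSO replicate 3) to 12, and partner genes lower from 13 (without WT DMSO replicate 3) to 20; without WT DMSO replicate 2, or WT Tu replicate 1, 2 or 3, 7 or 8 were higher. Members ranged from 8 to 10 lower and 2 to 3 higher, and in CKO Tu against WT Tu from 14 to 19 higher and 15 to 19 lower. Upward calls were 52.7% of all calls in WT Tu against WT DMSO in the deposited scaling, 42.3% with upper-quartile and 31.5% with total-fragment scaling; in CKO Tu against WT Tu they were 48.8% in the deposited and 58.0% with total-fragment scaling, where members went to 19 higher and 16 lower, against 16 and 17. Of the named partner calls, leaving out WT DMSO replicate 1 ended those of Suox and Ugdh; WT DMSO replicate 2 those of Abcc2, Baat, Nr3c1, Papss2, Slc7a11, Suox and Ugdh; WT DMSO replicate 3 those of Abcc2, Baat, Bche, Nat2, Nr3c1, Papss2, Slc7a11 and Ugdh; WT Tu replicate 1 those of Abcc2, Baat, Nr3c1, Papss2, Slc7a11 and Ugdh; WT Tu replicate 2 those of Baat, Gusb, Nat2, Nr3c1, Slc7a11 and Ugdh; and WT Tu replicate 3 those of Abcc2, Baat, Nat2 and Nr3c1. The CKO Tu libraries also enter this fit, which takes all 9 libraries together. Leaving out CKO Tu replicate 1 ended the calls of Baat and Nr3c1, CKO Tu replicate 2 those of Baat, Nr3c1 and Ugdh, and CKO Tu replicate 3 that of Nr3c1. The cause of these shifts was not tested. Depth limits the genes near 1 FPKM, where a library holds few fragments, and 3 libraries a group limit small changes.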
